A study of Homo sapiens with 6 samples.

Results

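Transcripts of 6 genes were followed across the RNA-seq libraries of HEK-293T cells with and without THUMPD1. These were the 3 genes of the THUMPD family (THUMPD1, THUMPD2 and THUMPD3), a further THUMP-domain gene (TRMT11), TRMT112 and the acetyltransferase gene NAT10. TRMT112 is the shared partner of THUMPD2, THUMPD3 and TRMT11. The 6 genes were chosen by name, as the rows of the count table that carry these symbols, which are 6 of its 58870 genes. All 6 passed the filter on low counts and were among the 15088 genes tested. Among them 2 were called, THUMPD1 and TRMT112, both as lower in the knockout (13.0% of all tested genes were called as lower, 13.7% as higher and 26.7% in all). The question was whether loss of the adaptor for tRNA acetylation changes the transcripts of its enzyme partner or of its paralogs.

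HEK-293T is an immortalized line derived from human embryonic kidney. The control group (WT, Thumpd+/+) and the knockout group (THUMPD1 KO, Thumpd−/−) had 3 libraries each, from untreated cells in DMEM. The knockout was made with a pair of CRISPR-Cas9 guides aimed at the coding sequence, followed by single-cell sorting, so that the KO libraries come from a sorted clone. Any other difference between this clone and its parent line cannot be told apart from the loss of THUMPD1. The labels do not say whether replicates were separate cultures, and the p values measure the spread between these libraries, which may be technical. Libraries held 32225646 to 44099898 expected counts of RSEM, which are estimates of read pairs per gene that need not be whole. Levels are given as CPM, the usual scaling of a count by its library total, and 1 CPM stood for 32.2 to 44.1 counts. Of the 4 markers listed for HEK-293T (PAX2, LIN28B, NEFM and NEFL) each averaged at least 1 CPM, with sums of 244.3 to 256.6 CPM in WT and 240.1 to 255.2 CPM in KO. Within this list NEFM, a neurofilament gene, fell from 35.3 ± 8.47 to 5.33 ± 1.20 CPM (SD, n = 3 each), while PAX2 and NEFL were higher in KO. None of 6 markers of differentiated kidney, 3 of leukocytes and 3 of endothelium averaged at least 1 CPM. Their sums stayed at or below 0.385 CPM in every library, and UMOD and AQP2 were at 0. Of 3 fibroblast markers, COL1A1 alone was above 1 CPM, with COL1A2 at 0, and the sum was 12.8 to 17.0 CPM in WT and 9.02 to 12.8 CPM in KO. COL1A1 was lower in KO, from 14.3 ± 2.32 to 10.3 ± 2.04 CPM (SD, n = 3 each), and the part of these markers in the results was not tested.

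The THUMP domain is an RNA-binding fold found in several enzymes and adaptors of tRNA modification. THUMPD1 has no catalytic domain of its own and presents tRNA for leucine and serine to NAT10, which acetylates a cytidine in the D arm to N4-acetylcytidine. NAT10 also acetylates the RNA of the small ribosomal subunit and is essential for its assembly, a task that does not need THUMPD1. THUMPD2, THUMPD3 and TRMT11 couple a THUMP domain to a methyltransferase domain and make N2-methylguanosine, THUMPD2 in the U6 spliceosomal RNA and THUMPD3 and TRMT11 in tRNA. Each of these methyltransferases is active only when bound to TRMT112, a small protein that stabilizes several methyltransferases.

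THUMPD1 itself was much lower in THUMPD1 KO. The gene (ENSG00000066654.14) lies on the minus strand of chromosome 16 (GRCh38, 20702816 to 20742084). It reached 77.3, 84.6 and 80.8 CPM in WT replicates 1, 2 and 3, and 10.2, 12.0 and 11.0 CPM in the KO replicates. The groups lay far apart, and each KO library still held between 353 and 529 THUMPD1 counts. The fitted log2 fold change was −2.87 with a 95% confidence interval from −3.06 to −2.69 (limma-voom, adjusted p = 3.17e-08), so that 12.0 to 15.5% of the WT level remained. In bulk RNA, fewer cells with a transcript and less transcript per cell cannot be told apart. The paper reports loss of THUMPD1 protein and of tRNA acetylation in its knockout HEK-293T cells. What the remaining THUMPD1 counts stand for was not tested. Only 17 tested genes had a lower log2 fold change. The call was made in all 18 alternative settings run for this gene. The pseudogene THUMPD1P1 had at most 1 count in any library, and adding its counts left the estimate at −2.87.

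Loss of the adaptor was not accompanied by a called change in the transcript of its enzyme. RNA counts do not measure the protein or its activity. NAT10 (ENSG00000135372.9, chromosome 11, 34105617 to 34147670, plus strand) was at 139.8, 137.5 and 141.0 CPM in WT and at 140.4, 148.8 and 154.8 CPM in THUMPD1 KO. The groups overlapped, because KO replicate 1 lay within the WT range while KO replicates 2 and 3 lay above it. NAT10 did not pass the threshold, with a log2 fold change of 0.058 (SE 0.046) and a limma-voom adjusted p of 0.375. Exact permutation of the CPM values, two-sided, left p at 0.2. Its 95% confidence interval, from −0.042 to 0.16, covers levels from 97.1% to 111.6% of WT. For NAT10, the fit with 3 libraries per group does not separate changes within these bounds from no change. Across 17 alternatives NAT10 was never called, and its adjusted p ranged from 0.149 to 0.755.

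Divided by the length of annotated exons, THUMPD1 and NAT10 can be set beside each other. WT cells held 0.467 ± 0.0256 THUMPD1 transcripts per NAT10 transcript by this measure (SD, n = 3), and THUMPD1 KO cells 0.0600 ± 0.00425 (SD, n = 3). The values were 0.445, 0.495 and 0.461 in WT and 0.0582, 0.0648 and 0.0569 in KO. With the longest coding transcript as the length, the ratios were 0.529 ± 0.0290 and 0.0680 ± 0.00482 (SD, n = 3 each). The groups did not overlap with either length.

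**Figure D1:**
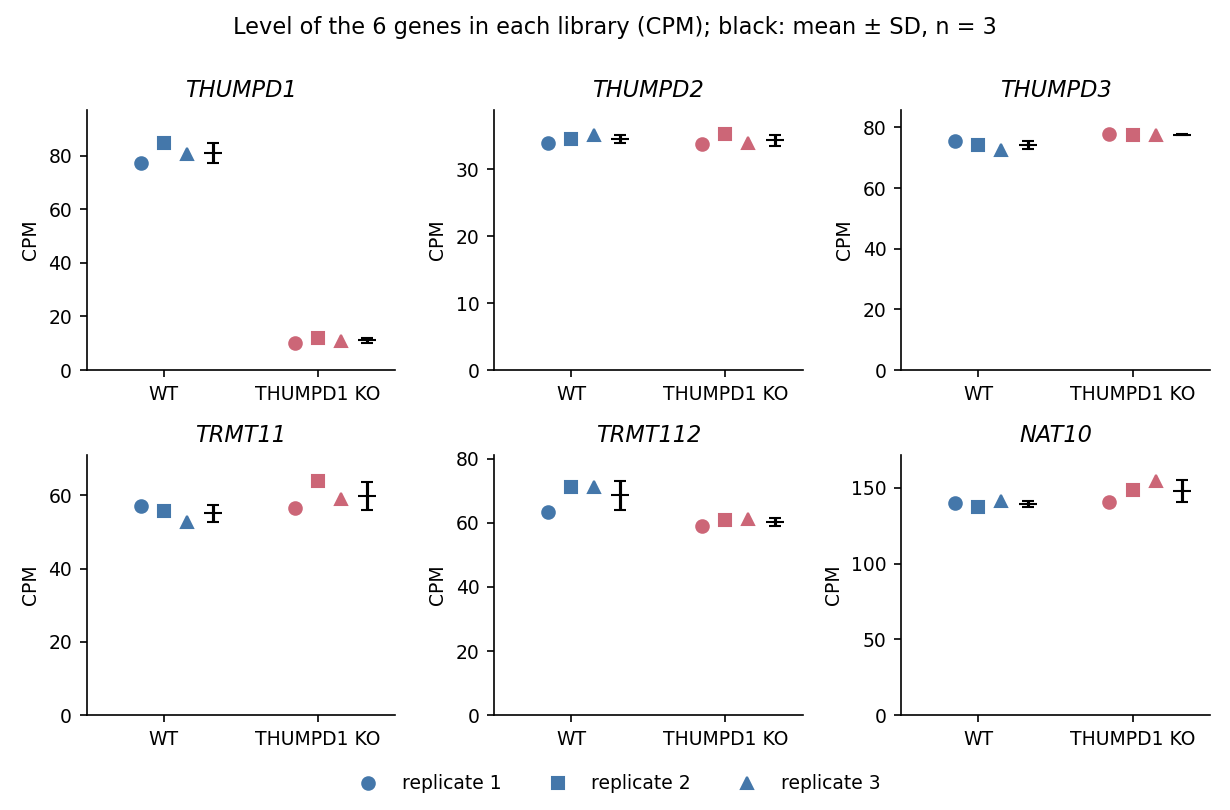
Level of THUMPD1, THUMPD2, THUMPD3, TRMT11, TRMT112 and NAT10 in each library in CPM (vertical axes start at 0), with WT in blue, THUMPD1 KO in red, a symbol for each replicate number, and black bars for the mean ± SD of 3 libraries. THUMPD1 falls from 77.3 to 84.6 CPM in WT to 10.2 to 12.0 CPM in KO, and TRMT112 is the other gene whose KO libraries all lie below WT.

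The THUMP-domain methyltransferase genes were not called in either direction. THUMPD2 (ENSG00000138050.15, chromosome 2, 39736060 to 39779267, minus strand) was at 33.9, 34.5 and 35.1 CPM in WT and at 33.8, 35.3 and 34.0 CPM in THUMPD1 KO. These ranges overlapped almost fully. The log2 fold change was −0.008 (95% confidence interval −0.13 to 0.11, limma-voom adjusted p = 0.925), which bounds the KO level between 91.6 and 108.0% of WT.

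THUMPD3 (ENSG00000134077.16, chromosome 3, 9362971 to 9386791, plus strand) was at 75.6, 74.3 and 72.7 CPM in WT and at 77.8, 77.6 and 77.5 CPM in THUMPD1 KO, where it had the smallest SD of the 6 genes (0.143 CPM). All KO libraries were above all WT libraries, a separation that 42.2% of all tested genes showed in one direction or the other. The log2 fold change was nevertheless only 0.055 (95% confidence interval −0.034 to 0.14, limma-voom adjusted p = 0.341), and its sign turned to −0.003 once trends along GC content and length were removed. The exact permutation p of the CPM values was 0.1, the smallest that 3 against 3 libraries allow.

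THUMPD3 shares its locus with transcripts of the opposite strand. THUMPD3-AS1, a long noncoding RNA that shares 730 exon bases with THUMPD3, was at 48.9, 43.1 and 41.2 CPM in WT and at 52.1, 55.2 and 52.1 CPM in THUMPD1 KO. It rose by a log2 fold change of 0.26 (SE 0.063, limma-voom adjusted p = 0.0112). The call was lost without WT replicate 3 (adjusted p = 0.0518) or THUMPD1 KO replicate 2 (0.0564). SRGAP3, a protein-coding gene whose 5′ end overlaps THUMPD3 by 83 exon bases, fell by 0.44 (SE 0.085, limma-voom adjusted p = 0.00353). The libraries were made with a stranded kit, but whether the counting used strand is not given in the sources used here. Without strand, reads of the shared bases cannot be told apart. The processed copy THUMPD3P1 had 11 to 17 counts in WT and 15 to 26 counts in KO, against 2498 to 3422 counts for THUMPD3.

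TRMT11 (ENSG00000066651.20, chromosome 6, 125986479 to 126203817, plus strand) was at 57.0, 55.6 and 52.6 CPM in WT and at 56.6, 64.0 and 59.0 CPM in THUMPD1 KO. KO replicate 1 fell within the WT range and the other KO libraries lay above it. The log2 fold change of 0.12 did not pass the threshold (95% confidence interval −0.004 to 0.25, limma-voom adjusted p = 0.137). Without adjustment the p was 0.0557 in the same limma-voom fit. TRMT11 was called in 1 of 17 alternatives, with sample quality weights (log2 fold change 0.15, adjusted p = 0.0322), and over all alternatives the adjusted p ranged up to 0.450. Libraries with the same replicate number differed by −0.01, 0.20 and 0.17 on the log2 scale for numbers 1, 2 and 3.

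TRMT112 was the only other gene of the 6 to be called. It lies on the minus strand of chromosome 11 (ENSG00000173113.6, 64316460 to 64317559). Its level was 63.4, 71.2 and 71.2 CPM in WT and 58.9, 61.0 and 61.2 CPM in THUMPD1 KO, so that all KO libraries were below all WT libraries, with WT replicate 1 closest to them. The WT mean was 68.6 CPM ± 4.54 and the KO mean 60.4 CPM ± 1.24 (SD, n = 3). TRMT112 fell by 0.18 on the log2 scale (95% confidence interval −0.31 to −0.050, limma-voom adjusted p = 0.0436), to 88.3% of WT. Of all tested genes 26.7% were called, and 17.6% had all KO libraries below WT. With TRMT112 as the 1 call among the 5 genes other than THUMPD1, their share was not above that background.

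The TRMT112 call was close to the threshold and did not stand in most fits that left out 1 library. It was lost without WT replicate 2 (adjusted p = 0.139), WT replicate 3 (0.152), THUMPD1 KO replicate 1 (0.125), KO replicate 2 (0.0842) or KO replicate 3 (0.0944) in the limma-voom fit, and held without WT replicate 1 (0.00264). It was also lost with no CPM filter (0.104) and with the trends along GC content and length removed (log2 fold change −0.12, adjusted p = 0.0947). The direction was negative in all 18 alternatives and 11 of them called it, among them edgeR (adjusted p = 0.0222) and DESeq2 (0.0130). The range over the alternatives was 0.00243 to 0.152. The share of all tested genes called under them was 25.7% with edgeR, 24.3% with DESeq2, 29.6% with the trends removed, 10.1% with no CPM filter and 36.5% with sample quality weights. It was 35.1% with the replicate number as a block, where TRMT112 was called (adjusted p = 0.00831), and 37.6% with the block and the trends removed, where it was called as well (0.0361). Calls over all tested genes were 4025 with all libraries and 4245 without WT replicate 1. They were 3243 and 2724 without WT replicates 2 and 3. Without KO replicates 1, 2 and 3 they were 3623, 2663 and 2799. TRMT112 has 7 processed pseudogenes in the table, of which TRMT112P6 had the highest count, 4.05, against 1972 to 2789 for the parent gene.

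TRMT112 stands head to head with PRDX5, the gene of a peroxiredoxin that removes peroxides, and was examined with it after its value was seen. The annotated starts are 562 bases apart on opposite strands, and RefSeq lists a further TRMT112 start 131 bases from that of PRDX5. PRDX5 was at 63.2, 64.4 and 64.1 CPM in WT and at 53.5, 45.8 and 47.8 CPM in THUMPD1 KO, with no overlap. It fell by 0.38 on the log2 scale (SE 0.056, limma-voom adjusted p = 6.93e-04) and was called in all 17 alternatives. ESRRA, an orphan nuclear receptor gene that overlaps the other end of TRMT112 by 284 exon bases on the opposite strand, had a log2 fold change of 0.080 (limma-voom adjusted p = 0.317). With GC content and length trends removed, ESRRA was at 0.18 and called as higher (limma-voom adjusted p = 0.0258, and 0.0192 with the replicate block). The 250 bases upstream of the annotated start of each gene, from RefSeq on GRCh38.p14, are shown because both genes of this pair were lower. Capitals mark the letters CCGGAA or, on the opposite strand, TTCCGG, the core bound by ETS factors. TRMT112 is read from the minus strand of chr11:64317560-64317809 and PRDX5 from the plus strand of chr11:64317871-64318120.
TRMT112: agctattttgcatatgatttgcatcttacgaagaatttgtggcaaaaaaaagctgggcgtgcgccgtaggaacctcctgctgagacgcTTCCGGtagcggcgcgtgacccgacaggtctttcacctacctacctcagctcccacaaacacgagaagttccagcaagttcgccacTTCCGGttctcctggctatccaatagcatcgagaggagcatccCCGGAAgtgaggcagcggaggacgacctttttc
PRDX5: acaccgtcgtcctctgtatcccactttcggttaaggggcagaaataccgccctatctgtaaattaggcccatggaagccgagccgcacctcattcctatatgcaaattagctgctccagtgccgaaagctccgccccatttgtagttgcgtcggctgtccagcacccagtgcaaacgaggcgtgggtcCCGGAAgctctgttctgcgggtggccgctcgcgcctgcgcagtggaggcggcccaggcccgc
The TRMT112 stretch holds 3 such matches and the PRDX5 stretch 1. RefSeq gives each gene a second start, and the stretches upstream of these, not printed, both overlap the printed PRDX5 stretch. Each holds 1 match, which is the same site as the match printed for PRDX5. They hold 2 GC boxes for TRMT112 and 1 for PRDX5. Of 35116 upstream stretches of the same length, 14.5% hold at least 1 match and 0.626% hold 3 or more. Among the other genes, the stretches of THUMPD3 and TRMT11 hold 1 each, those of THUMPD1 and NAT10 none, and THUMPD2 was not matched. Other motifs searched on both strands were the GC box GGGCGG, the TATA box TATAAA, the CRE TGACGTCA, the NRF1 site by its name and the YY1 site AAGATGGC. The printed TRMT112 stretch held none of these, and the printed PRDX5 stretch held 2 GC boxes, a motif present in 42.6% of all stretches. A match describes the letters only and is not a measured binding site.

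Per length, the order of levels in WT was TRMT112, NAT10, THUMPD3, THUMPD1, TRMT11 and THUMPD2. In CPM per kilobase of annotated exons the WT means were 62.4 ± 4.12, 26.7 ± 0.342, 14.2 ± 0.271, 12.4 ± 0.561, 9.62 ± 0.400 and 9.03 ± 0.153 (SD, n = 3 each). The ranges of TRMT11 (9.18 to 9.97) and THUMPD2 (8.87 to 9.18) met, and the other neighbors in this order did not overlap. In THUMPD1 KO the level of THUMPD1 was 1.70 ± 0.141 CPM per kilobase (SD, n = 3), the lowest of the 6. The order depended on the length used, as TRMT11 stood at 29.1 CPM per kilobase of its longest coding transcript, above THUMPD3 (18.7) and THUMPD1 (18.6).

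The supply of TRMT112 transcript was also set against the summed transcripts of its 3 THUMP-domain partners. Per exon length, WT libraries held 1.73, 1.97 and 2.01 TRMT112 transcripts per transcript of THUMPD2, THUMPD3 and TRMT11 together. THUMPD1 KO libraries held 1.60, 1.57 and 1.64. All KO values were below all WT values, with means of 1.90 ± 0.149 in WT and 1.60 ± 0.0319 in KO (SD, n = 3 each). The ratio was above 1 in every library, also with the longest coding transcript as the length. There it was 1.33 ± 0.109 in WT and 1.11 ± 0.0292 in KO (SD, n = 3 each). It leaves out BUD23, N6AMT1, METTL5 and ALKBH8, methyltransferases that also need TRMT112, so it does not compare TRMT112 with all its partners. The ratio used CPM from which trends along GC content and length were not removed. Their removal moved the log2 fold change of TRMT112 from −0.18 to −0.12. It moved THUMPD2, THUMPD3 and TRMT11 down, to −0.079, −0.003 and 0.061, and the ratio was not computed with the trends removed. Among single tested genes, 42.2% had groups that did not overlap.

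The 6 genes differ in base composition, and the fold changes moved with it when trends along GC content and length were removed. THUMPD1, THUMPD2, THUMPD3 and TRMT11, whose longest transcripts have 38.0 to 42.1% GC, went down by about the same amount, to −2.93, −0.079, −0.003 and 0.061. TRMT112, at 55.4% GC and 1100 exon bases the shortest and most GC-rich of the 6, went up to −0.12. NAT10, at 51.6% GC, was at 0.070. None of THUMPD2, THUMPD3, TRMT11 and NAT10 was called with the trends removed, with limma-voom adjusted p values of 0.236, 0.966, 0.424 and 0.255.

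Tested genes within 2 Mb of each gene, start to start, were used to see whether a region moved with it. Around THUMPD1, the 38 tested neighbors had a median log2 fold change of −0.24, with 19 called as lower and 0 as higher, against 13.0% and 13.7% of all tested genes. The lowest of them was at −1.26, above the value of THUMPD1 itself. Within 5 Mb, the 72 tested neighbors ranged from −2.52 to 1.53, with 31 called as lower and 2 as higher. ACSM3, a medium-chain acyl-CoA synthetase gene that runs through the THUMPD1 locus on the opposite strand, was at 1.23 ± 0.0917 CPM in WT and 1.11 ± 0.145 CPM in KO (SD, n = 3 each) and shares no exon base with THUMPD1. Around the other 5 genes the medians lay close to 0. They were 0.001 over 15 neighbors of THUMPD2, 0.058 over 35 of THUMPD3, 0.008 over 12 of TRMT11, −0.006 over 116 of TRMT112 and 0.090 over 22 of NAT10. Neighbors called as higher and lower were 9 and 3 for THUMPD3, 3 and 3 for TRMT11, 3 and 2 for NAT10, and 1 and 1 for THUMPD2. TRMT112 was lower than all but 16 of its 116 neighbors, of which 13 were called as higher and 13 as lower, near the shares of all tested genes (13.7% and 13.0%). The value of NAT10 (0.058) was below the median of its own neighbors.

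The pattern of THUMPD1 over the 6 libraries was compared with that of every other tested gene, by the root mean square distance between log2 CPM values centered on each gene's mean. As the libraries form 2 genotypes, this likeness mostly ranks genes by the size of their fall, and no correlation is given. The 5 nearest genes were CYBA (distance 0.169), which encodes a subunit of the phagocyte NADPH oxidase, the porphyrin transporter gene ABCB6 (0.180), the globin gene HBQ1 (0.208), the meiotic gene MEIOC (0.215) and MFAP2 (0.229), which encodes a microfibril protein. The median distance of all tested genes was 1.46. CYBA fell to 4.52 ± 0.368 CPM in KO from 29.7 ± 2.74 CPM in WT, and ABCB6 to 1.59 ± 0.282 CPM from 12.9 ± 0.942 CPM (SD, n = 3 each). CYBA and HBQ1 are on chromosome 16, as THUMPD1 is, and the others on chromosomes 2, 17 and 1. HBQ1 had 5 to 11 counts in the KO libraries, where counting error is large. HBQ1 (0.212 ± 0.0501 CPM) and MEIOC (0.664 ± 0.0449 CPM, SD, n = 3 each) lay below 1 CPM in KO and passed the filter through WT.

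**Figure D2:**
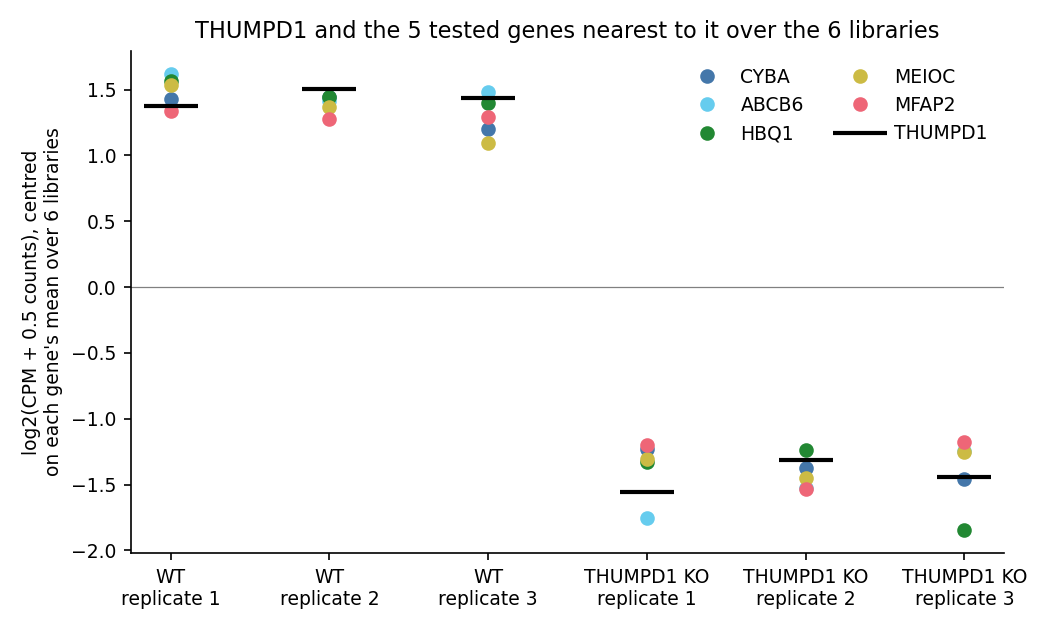
Log2 CPM (0.5 added to each count), centered on each gene's mean over the 6 libraries (vertical axis), for THUMPD1 (black bars) and the 5 nearest tested genes (colored points) in each WT and THUMPD1 KO library. The 5 genes were picked for nearness to THUMPD1 in these same libraries, so their likeness follows from the choice. All 6 genes lie above their mean in the WT libraries and below it in the KO libraries, with root mean square distances from THUMPD1 of 0.169 to 0.229.

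A list of 25 genes that work with these proteins or on the same RNAs was then read in the same fit. All 25 were tested, and 5 were called, 4 as higher and 1 as lower, against 26.7% of all tested genes. In 8 of the 25 the groups did not overlap, against 42.2% of all tested genes. Their median log2 fold change was 0.063, against 0.016 for all tested genes, and the values lay between −0.17 and 0.21. With the replicate number as a block, 10 of the 25 were called (7 higher, 3 lower), where the background was 35.1%. Leaving out THUMPD1 KO replicate 2 took the count to 0 with limma-voom (6 at an unadjusted p under 0.05, against 4878 of the 15088 tested genes). The count was 1 without WT replicate 3, and 2 each without WT replicate 2 and without KO replicate 3. It was 1 with no CPM filter. No single call among these genes therefore stood in every setting. Calls over all tested genes fell as well, from 4025 to 2663 without KO replicate 2 and 2724 without WT replicate 3. They were 3243 without WT replicate 2 and 2799 without KO replicate 3. With no CPM filter 10.1% of genes were called, against 26.7%.

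Other methyltransferases that need TRMT112 had log2 fold changes between 0.012 and 0.21. METTL5, which methylates adenosine in small-subunit ribosomal RNA, was at 31.2, 32.9 and 31.3 CPM in WT and at 37.9, 37.3 and 34.7 CPM in THUMPD1 KO, without overlap. It rose by 0.21 (SE 0.057, limma-voom adjusted p = 0.0195), a call lost without WT replicate 3 (0.0677), KO replicate 1 (0.0566) or KO replicate 2 (0.0775), or with no CPM filter (0.0545). ALKBH8, an enzyme of wobble uridine modification, had a log2 fold change of 0.15 (limma-voom adjusted p = 0.0974, and 0.0316 with the replicate block). BUD23, which methylates guanosine in small-subunit ribosomal RNA, was at 0.012, and N6AMT1, which methylates a translation release factor, at 0.043. Neither was called in any of 17 alternatives.

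The list of genes tied to NAT10 in ribosome assembly held 4 genes. SNORD13, the small nucleolar RNA that guides acetylation of small-subunit ribosomal RNA, was at 3.85 ± 0.178 CPM in WT and 3.60 ± 0.498 CPM in THUMPD1 KO (SD, n = 3 each). AATF, NGDN and NOL10, which form a complex of early small-subunit assembly, had log2 fold changes between −0.003 and 0.082. For these 4 genes the count was 0 with limma-voom, with edgeR and with DESeq2, and 0 at an unadjusted p under 0.05. The shares of all tested genes called were 26.7%, 25.7% and 24.3%. By limma-voom, 5922 of the 15088 tested genes had an unadjusted p under 0.05. The list was not tested against these shares. The confidence interval for SNORD13 was wide, from −0.42 to 0.17, and a short RNA of this kind is recovered unevenly by such libraries. The genes of the tRNA N2-dimethylguanosine enzymes TRMT1 and TRMT1L were at −0.10 and −0.13. TRMT1L was at an adjusted p of 0.0742 by limma-voom, 0.0440 by edgeR and 0.0415 with the replicate block.

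Enzymes of tRNA for leucine and serine, the RNAs that THUMPD1 serves, made up a list of 10 genes, of which 4 were called, 3 as higher and 1 as lower, and 6 were not. Of all tested genes 26.7% were called, and the list was not tested against them. NSUN2, a cytosine-5 methyltransferase, went from 138.3, 145.9 and 139.0 CPM in WT to 153.6, 164.0 and 170.9 CPM in THUMPD1 KO. It rose by 0.18 (SE 0.050, limma-voom adjusted p = 0.0196), a call lost without WT replicate 3 (0.0726), KO replicate 2 (0.0649) or KO replicate 3 (0.0801), or with GC content and length trends removed (0.0729). THADA, a partner of the ribose methyltransferase FTSJ1, rose by 0.20 (limma-voom adjusted p = 0.0341) and was called without KO replicate 1 alone among the fits that left out a library. THADA was not called with trends removed (0.0842), with no CPM filter (0.0823) or with TMM. METTL6, which methylates cytidine in serine tRNA, rose by 0.17 (limma-voom adjusted p = 0.0428) and was called without WT replicate 1 alone among these fits. METTL6 was also not called by edgeR (adjusted p = 0.0897) or DESeq2 (0.161), with trends removed (0.107), with no CPM filter (0.0989), with TMM or with library sizes alone. LARS1, leucyl-tRNA synthetase, fell by 0.17 (95% confidence interval −0.30 to −0.049, limma-voom adjusted p = 0.0431), a call lost without WT replicate 1 (0.0915), WT replicate 2 (0.0582), KO replicate 2 (0.124) or KO replicate 3 (0.154), with no CPM filter (0.0767) or with library sizes alone. SARS1, seryl-tRNA synthetase, was at −0.14 and was not called (limma-voom adjusted p = 0.193, and 0.0144 with the replicate block). TRIT1, which isopentenylates adenosine, was at 0.19 with an adjusted p of 0.0670 by limma-voom and 0.0295 with the block. TRMT44, ALKBH1, FTSJ1 and WDR6 were at 0.063, 0.15, 0.041 and 0.043.

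Of the 5 genes for other enzymes of the tRNA D arm and its border, 0 were called by limma-voom, edgeR or DESeq2. The shares of all tested genes called were 26.7%, 25.7% and 24.3%. By limma-voom 1 of the 5 had an unadjusted p under 0.05, against 5922 of the 15088 tested genes. All 5 had log2 fold changes above 0, between 0.042 for DUS1L and 0.20 for DUS4L, both dihydrouridine synthases. Of the 15088 tested genes, 8085 were above 0. DUS1L depended on the correction, as it was at 0.13 and called with GC content and length trends removed (limma-voom adjusted p = 0.0248, and 0.0133 with the replicate block as well). DUS4L was the gene with the lowest adjusted p of the 5, at 0.0890 by limma-voom and 0.0430 with the replicate block. DUS2 was at 0.13, and the guanosine and adenosine methyltransferase genes TRMT10A and TRMT10B were at 0.16 and 0.067.

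**Figure D3:**
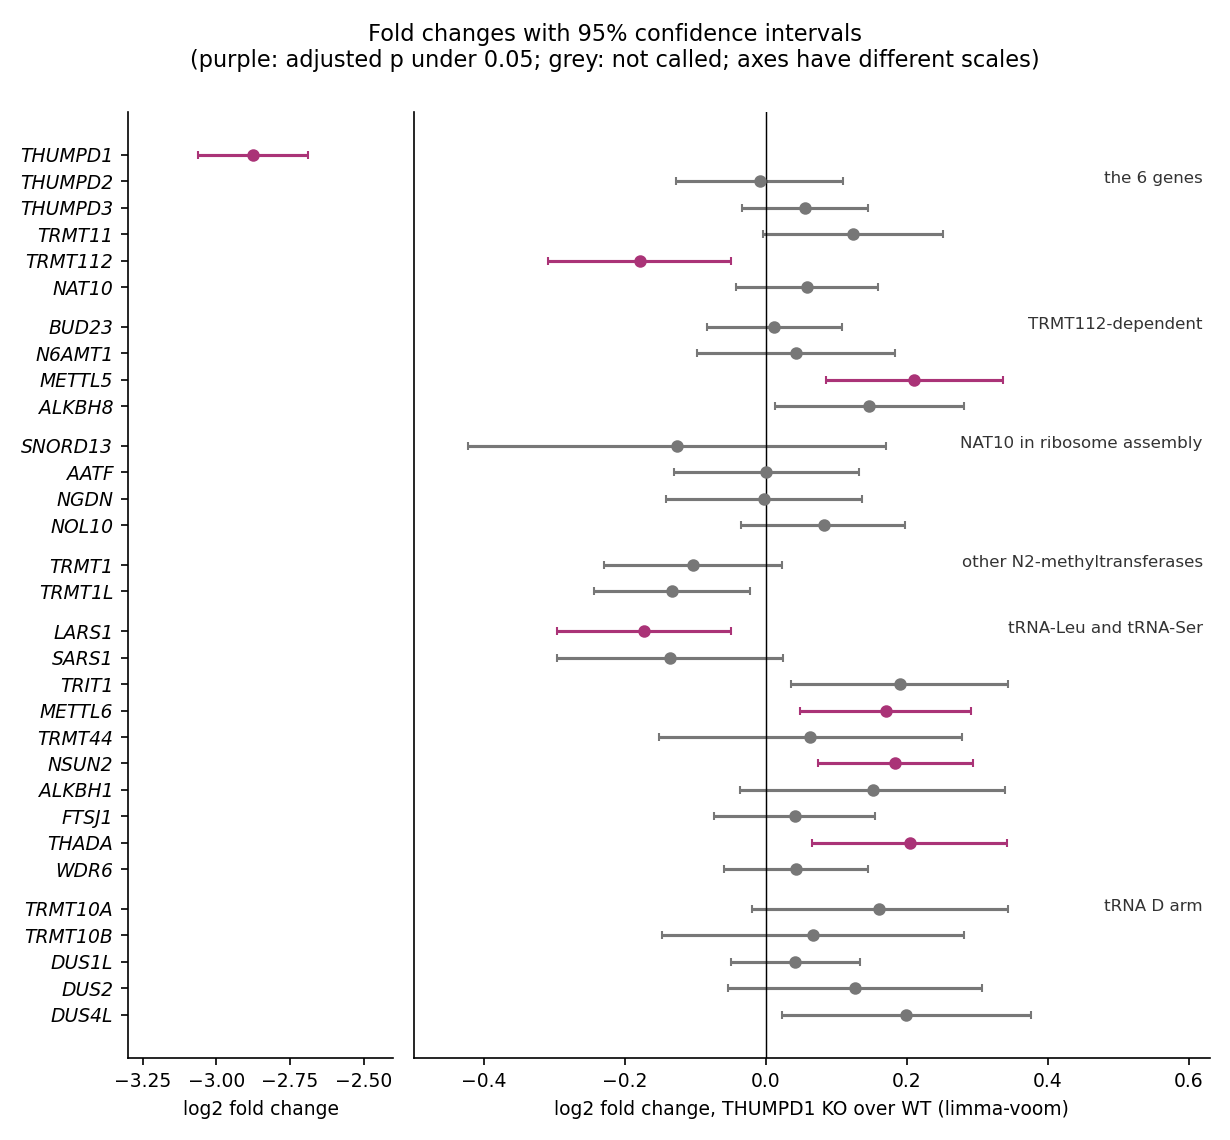
Log2 fold change of THUMPD1 KO over WT (horizontal axes, THUMPD1 on its own scale) with 95% confidence intervals of limma-voom for the 6 genes and the 25 listed genes, grouped by function. Purple marks an adjusted p under 0.05. Besides THUMPD1, the called genes TRMT112, METTL5, LARS1, METTL6, NSUN2 and THADA all lie between −0.18 and 0.21.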

How the data were processed

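Total RNA of 6 libraries (3 WT, 3 THUMPD1 KO) was depleted of ribosomal RNA and sequenced in pairs. RSEM expected counts per gene, unscaled, were deposited by the authors, who had used STAR for alignment to GRCh38 (versions not given in the sources used here). Library depth was 32225646 to 44099898 counts. Groups and replicate numbers came from the labels. GENCODE 44 on GRCh38 held 99.4% of the gene IDs and gave positions, lengths and GC content.

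The 15088 genes that reached 1 CPM in 3 or more libraries were tested. As in the study, they were scaled by quantile normalization and limma-voom was used (limma 3.58.1, R 4.3.3), with genotype as the only term. P values were two-sided and adjusted over all tested genes by Benjamini-Hochberg at 0.05. Levels are CPM, as mean ± SD. Exact permutation tests used the 20 groupings of libraries. The limma-voom and edgeR fits were tested on simulated data. Changes simulated there were larger than that of TRMT112, and libraries were not paired, so small changes were not covered. The genes and lists were chosen with earlier results of these data known. Named were the 6 genes, the listed genes, genes overlapping or named after them, and the 5 genes nearest to THUMPD1; PRDX5 was added after its value was seen.

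Same-numbered libraries deviated together from their genotype means over 11717 genes (correlations 0.220, 0.169 and 0.136, against at most 0.0849 for other pairs), and the numbers were taken to pair them. Alternatives were this replicate block, TMM or plain library sizes, other filters, quality weights, edgeR 4.0.16 and DESeq2 1.42.0 on counts rounded to whole numbers, removal of GC content and length trends (splines with 5 degrees of freedom), pseudogene counts added, and each library left out.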

Additional observations from a re-analysis of the deposited data

How the results depend on the processing

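Of the values recomputed under the alternatives, 120 kept their direction and their side of the threshold or moved little, 19 moved further, 4 reversed, 7 lost a call and 1 gained a call. Leaving out 1 library gave log2 fold changes from −2.96 to −2.79 for THUMPD1, −0.040 to 0.019 for THUMPD2 (above 0 without WT replicate 3 or KO replicate 1), 0.045 to 0.062 for THUMPD3, 0.065 to 0.17 for TRMT11, −0.25 to −0.15 for TRMT112 and 0.025 to 0.094 for NAT10. THUMPD3 turned to −0.003 with GC content and length trends removed, with and without the replicate block, and the cause was not tested. TRMT11 was called with quality weights (0.15). TRMT112 lost its call with no CPM filter (−0.18), where more genes are tested, and with the trends removed (−0.12). The replicate block changed no call among the 6 genes (TRMT112 −0.18 with the block). Genes called in all ranged from 2663 (without THUMPD1 KO replicate 2) to 4245 when 1 library was left out, against 4025. Listed genes called ranged from 0 to 5 in those fits, and were 3 with TMM, 3 with library sizes alone, 1 with no CPM filter, 8 with quality weights, 10 with the block and 8 with the block and trends removed, against 5. With the longest coding transcript as length, WT levels per kilobase were 18.6 for THUMPD1, 15.7 for THUMPD2, 18.7 for THUMPD3, 29.1 for TRMT11, 84.5 for TRMT112 and 35.1 for NAT10. Within 5 Mb, the neighbor median was −0.19 for THUMPD1 and 0.11 for NAT10. The confidence intervals of the 6 genes reached about 0.1 to 0.2 either side, and no limit of detection was computed.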
